A study of Mus musculus with 15 samples.

Results

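The cytosolic ribosomal protein genes encode the proteins of the small and large subunits of the ribosome that translates nuclear mRNAs. They were taken as every row of the liver count table whose symbol follows the Rpl, Rps or Rplp pattern with a number, leaving out S6 kinases, pseudogenes and mitochondrial ribosome genes, and whose counts summed to at least 150 over the 15 libraries. Of 83 symbols with this pattern 81 were kept, of 15302 genes in the table. They comprise 49 genes of the large subunit and 32 of the small subunit, and 5 of them carry the symbol of a paralog (Rpl7l1, Rpl22l1, Rpl36al, Rps4l and Rps27l). Rps27, with a sum of 174 counts, lay just inside the limit, followed by Rpl12 with 1220. Rpl3l, with a sum of 10, and Rpl32l, with a sum of 6, lay outside it.

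RNA was sequenced from livers of wild-type mice, 5 libraries in each of 3 groups named GDF15, PairFed and Vehicle. All mice were kept on a MASH diet, which models metabolic steatohepatitis, at 29 °C from 8 weeks of age and were housed singly. GDF15 mice were given recombinant GDF15, a stress hormone that lowers food intake, under the skin once a day at 1 nmol/kg. PairFed mice were offered what the GDF15 mice had eaten on the day before, so that GDF15 against PairFed sets the hormone apart from the smaller food intake, and Vehicle mice were the controls. All 3 groups share the genotype, diet, temperature and single housing; whether PairFed mice were injected is not given in the sources used here.

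A ribosome holds each of its proteins in a fixed number of copies, and the genes of these proteins are commonly regulated together. Their mRNAs usually begin with a C followed by a run of pyrimidines, the 5′ terminal oligopyrimidine (TOP) tract, through which mTORC1 signalling controls their translation when nutrients change. That control acts on how much protein is made from an mRNA, which counts of RNA do not measure, and ribosomal protein mRNAs are among the most abundant mRNAs of any cell, liver included.

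The first bases of the mRNA are shown for 5 genes in which such a tract sits at the listed start and for 2 in which it does not, as examples of both kinds of start among the 81 genes. Each line runs 5′ to 3′ on the gene's own strand, from 30 bases before the RefSeq start (GRCm38.p6) to 20 bases from that start on, and capitals mark the unbroken run of C and T that begins at the first transcribed base.
Rps6: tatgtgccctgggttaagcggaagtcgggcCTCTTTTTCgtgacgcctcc
Rps15a: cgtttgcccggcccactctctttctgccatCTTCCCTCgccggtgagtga
Rps27: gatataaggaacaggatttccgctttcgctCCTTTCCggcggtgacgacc
Rpl15: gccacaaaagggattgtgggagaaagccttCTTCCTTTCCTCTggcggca
Rpl38: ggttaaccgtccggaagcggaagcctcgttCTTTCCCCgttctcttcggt
Rpl10: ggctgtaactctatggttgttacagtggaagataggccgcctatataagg
Rplp0: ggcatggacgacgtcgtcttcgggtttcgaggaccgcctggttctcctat
The windows lie at chr4:86857348-86857397 on the minus strand for Rps6, chr7:118116128-118116177 on the minus strand for Rps15a, chr3:90213629-90213678 on the minus strand for Rps27 and chr14:18270967-18271016 on the minus strand for Rpl15. Those of Rpl38, Rpl10 and Rplp0 are on the plus strand, at chr11:114668550-114668599, chrX:74270786-74270835 and chr5:115559437-115559486.

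RefSeq's promoter table held 60 of the 81 genes, with the first listed start used for each. A C at the start followed by pyrimidines, at least 5 in a row in all, was found in 12 of 60, or 20.0%. The same was found in 2.49% of the 27025 genes of the promoter table and in 2.26% of the 12097 that are also in the count table. It was found in 0 of 69 mitochondrial ribosome genes and in 3 of 23 genes listed as translation factors or other TOP mRNAs. Allowing a C-led run of at least 8 pyrimidines to begin anywhere within 10 bases of the start gave 21 of 60 ribosomal protein genes (35.0%) and 7.75% of all genes. The windows of 300 bases from 250 before to 50 after the start were also searched on both strands for 4 motifs. CCGGAAG was in 38.3% of the ribosomal protein genes, in 36.2% of the mitochondrial ribosome genes and in 16% of the count table's genes, and ATGGCG was in 28.3%, 27.5% and 14.1%. GGGCGG was in 61.7% of the ribosomal protein genes and 59.7% of the count table's genes, and TATAAA in 10% and 8.23%. RefSeq starts are annotation and were not measured in these libraries, so the shares describe the listed starts only.

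The 81 genes gave 1.22 ± 0.057% of all counts in GDF15 livers, 1.25 ± 0.086% in PairFed livers and 1.31 ± 0.135% in Vehicle livers (SD, n = 5 each). The ranges overlapped, at 1.16 to 1.30% in GDF15, 1.16 to 1.39% in PairFed and 1.23 to 1.55% in Vehicle. The highest value belonged to 1 library, Vehicle 4, and the other 4 Vehicle libraries lay between 1.23 and 1.27%. Library totals ran from 8551557 to 10914914 counts in GDF15, 10133289 to 12933324 in PairFed and 9228127 to 12994187 in Vehicle. Vehicle 4 and PairFed 2 to 5 formed a deeper set, parted from the other 10 libraries by a gap between 10914914 and 12137462 counts. Libraries are numbered by their place in the table, as names only. Hepatocyte markers were abundant everywhere, with 6 genes summing to 92519 to 119508 CPM (counts scaled to library size) in GDF15, 88437 to 109615 in PairFed and 79544 to 100218 in Vehicle.

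All 81 genes were tested with the other genes that passed the low-count filter, 12274 in all, and none was past an adjusted p of 0.05 in any of the 3 comparisons. Between GDF15 and Vehicle, edgeR's quasi-likelihood test with Benjamini-Hochberg adjustment called 0 of the 81, against 2.9% of all tested genes. At an unadjusted p below 0.05 it called 0 of the 81 against 16.7% of all genes, and in 0 of the 81 did the groups not overlap, against 3.99% of all genes. Between PairFed and Vehicle it called 0 of the 81 against 0.285% of all genes. There an unadjusted p below 0.05 was reached by 2 genes, Rpl10 and Rps15a, or 2.47% against 16.9% of all genes, and only for Rps15a did the groups not overlap (1.23% against 3.92%). Between GDF15 and PairFed it called 0 of the 81 against 0.782%, an unadjusted p below 0.05 was reached by Rpl10, Rpl12 and Rps15a (3.7% against 13.3%), and in 0 of the 81 did the groups not overlap (against 2.86%). DESeq2's Wald test also called 0 of the 81 in each comparison, against 5.23% of all genes for GDF15 against Vehicle, 2.76% for PairFed against Vehicle and 2.03% for GDF15 against PairFed. For limma-voom the count was 0 of the 81 in each, against 2.53%, 0.31% and 0.595% of all genes in the same order of comparisons.

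The intervals of the differences were narrow. The median half-width of the 95% interval of a log2 fold change was about 0.17 in each comparison. For GDF15 against Vehicle the interval lay wholly within 0.5 on the log2 scale, a 1.41-fold difference either way, for 79 of 81 genes (97.5%) and for 64.8% of all tested genes. The exceptions were Rps27 and Rps4l, both of low count. For PairFed against Vehicle it did so for 78 genes, all but Rpl10, Rpl12 and Rps27, and for 65.6% of all genes. For GDF15 against PairFed it did so for 76 genes, all but Rpl10, Rpl12, Rps12, Rps27 and Rps4l, and for 66.7% of all genes. In all 3 comparisons the interval of each of the 81 genes lay within a 2-fold difference. Sequenced liver pieces hold many cell types, and in such bulk samples fewer cells of a type and less RNA per cell cannot be told apart.

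**Figure D1:**
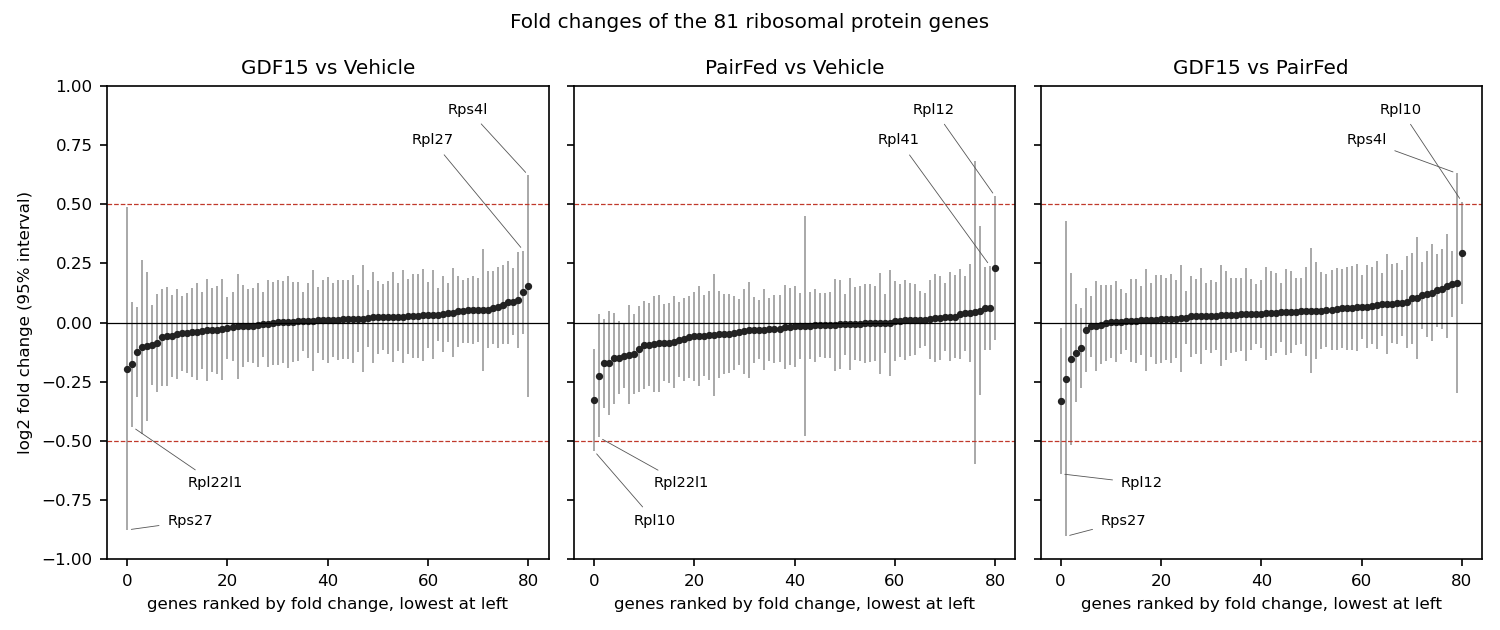
Log2 fold change with its 95% interval (y axis) of each of the 81 genes, ranked from lowest to highest (x axis), in the 3 comparisons. Red dashed lines mark 0.5 on the log2 scale; the points run from -0.19 to 0.15 for GDF15 against Vehicle, and the widest intervals belong to low-count genes such as Rps27 and Rps4l.

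The fold changes of the 81 genes were narrowly spread. Their median was 0.011 for GDF15 against Vehicle, with 51 genes above 0 and 30 below, while all tested genes had a median of -0.0046. The middle part of the distribution, from the lower to the upper quartile, ran from -0.023 to 0.032 for the 81 genes and from -0.136 to 0.099 for all genes. For PairFed against Vehicle the median was -0.016, with 21 genes above 0 and 60 below (all genes -0.0005), and for GDF15 against PairFed it was 0.036, with 71 above and 10 below (all genes 0.0007). These 3 comparisons share their samples in pairs and are not independent of each other. How many genes lay above 0 varied with the libraries and the scaling. Without Vehicle 4 and GDF15 1, a choice made after seeing the data, 60, 65 and 43 of the 81 genes were above 0 for GDF15 against Vehicle, PairFed against Vehicle and GDF15 against PairFed. With all libraries kept, the counts in the same order were 17, 10 and 59 with upper-quartile factors, 4, 5 and 40 with 1 surrogate variable, and 37, 42 and 39 when libraries were scaled by the summed counts of the 81 genes.

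A term for the deeper set of libraries changed the picture most in the comparisons with PairFed. With it, the median log2 fold change for GDF15 against PairFed was 0.19 and 77 of the 81 genes were above 0. There 30 of the 81 (37%) had an unadjusted p below 0.05 by edgeR, against 8.73% of all genes. After adjustment 0 of the 81 and only 9 of all 12274 genes were past the threshold. The lowest adjusted p of the 81 by edgeR was 0.267. For PairFed against Vehicle the median was -0.12, 4 genes were above 0 and 19 (23.5%) had an unadjusted p below 0.05, against 11.1% of all genes. After adjustment 0 of all 12274 genes were past the threshold there, and the lowest adjusted p of the 81 by edgeR was 0.251. For GDF15 against Vehicle 69 genes were above 0 and 1 (1.23%) had an unadjusted p below 0.05, against 17.7% of all genes. The deeper set holds no GDF15 library, so depth and group are partly tied. The depth term therefore rests on Vehicle 4 against the other Vehicle libraries and on PairFed 1 against the other PairFed libraries. Vehicle 4 had the highest mean log2 CPM of the 81 genes, at 0.233 relative to the mean of all libraries. PairFed 1 was at -0.072. Within groups the 81 genes had a median pairwise correlation of 0.73. The counts of low unadjusted p values above are therefore not counts of independent signals. Large and small subunit genes had like medians, 0.0089 and 0.011 for GDF15 against Vehicle, -0.016 and -0.015 for PairFed against Vehicle, and 0.039 and 0.031 for GDF15 against PairFed.

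Rpl10, a large subunit protein that joins late in subunit assembly (chrX:74270816-74273135), had the lowest p of the 81 genes in both comparisons with PairFed. It stood at 64.4, 72.4, 63.7, 52.0 and 59.1 CPM in GDF15 livers, at 52.5, 61.3, 55.8, 45.5 and 39.1 CPM in PairFed livers and at 59.3, 66.0, 62.7, 66.3 and 64.1 CPM in Vehicle livers. Most PairFed libraries were lower than all Vehicle libraries, but PairFed 2 lay among them, and PairFed 5 was the lowest of the 15. Means were 62.3 ± 7.5 CPM in GDF15, 50.8 ± 8.68 in PairFed and 63.7 ± 2.85 in Vehicle (SD, n = 5 each). The log2 fold change was -0.33 ± 0.103 (SE) for PairFed against Vehicle, with an interval from -0.54 to -0.11 and an adjusted p = 0.136 by edgeR's quasi-likelihood test. For GDF15 against PairFed it was 0.29 ± 0.103, with an interval from 0.08 to 0.51 and an adjusted p = 0.210 by the same test. Neither was past the threshold. Over the alternative settings the adjusted p for PairFed against Vehicle ran from 0.0581, with 1 surrogate variable, to 0.991. Of the 31-base stretches of the Rpl10 transcript 92.3% are also in transcripts of other genes.

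Rps15a, a small subunit protein (chr7:118104374-118116147), was the other gene with a low unadjusted p in both comparisons with PairFed. Its levels were 81.8, 79.0, 84.5, 70.3 and 77.3 CPM in GDF15 livers, 66.7, 72.1, 72.0, 66.3 and 73.9 CPM in PairFed livers and 74.2, 74.6, 75, 88.9 and 74.0 CPM in Vehicle livers. All 5 PairFed values were below all 5 Vehicle values, although the highest PairFed library, at 73.9 CPM, all but touched the lowest Vehicle library, and Vehicle 4 was far above the rest of its group. For PairFed against Vehicle the log2 fold change was -0.14 ± 0.066 (adjusted p = 0.288 by edgeR), and for GDF15 against PairFed it was 0.16 ± 0.066 (adjusted p = 0.288 by edgeR). Both differences are smaller than the 1.41-fold limit and neither was past the threshold.

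Rpl12, a protein at the base of the ribosomal stalk (chr2:32961712-32964045), had its highest mean in PairFed. It was at 6.39, 9.29, 6.43, 5.69 and 6.31 CPM in GDF15 livers, 9.90, 8.5, 8.52, 8.98 and 6.99 CPM in PairFed livers and 6.23, 7.04, 6.34, 9.08 and 7.60 CPM in Vehicle livers. GDF15 2 lay among the PairFed libraries and the other 4 GDF15 libraries lay below them. The log2 fold change for GDF15 against PairFed was -0.33 ± 0.147, with an interval from -0.64 to -0.02 and an adjusted p = 0.338 by edgeR.

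Rpl7l1, a paralog of the large subunit protein Rpl7, came next after Rpl10 and Rps15a by p for PairFed against Vehicle. It was at 59.9, 52.5, 58.6, 56.5 and 46.9 CPM in GDF15 livers, 54.6, 53.1, 48.0, 45.7 and 48.4 CPM in PairFed livers and 52.7, 60.2, 51.1, 55.7 and 57.0 CPM in Vehicle livers. The groups overlapped, and the log2 fold change for PairFed against Vehicle was -0.15 ± 0.073 (adjusted p = 0.307 by edgeR).

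**Figure D2:**
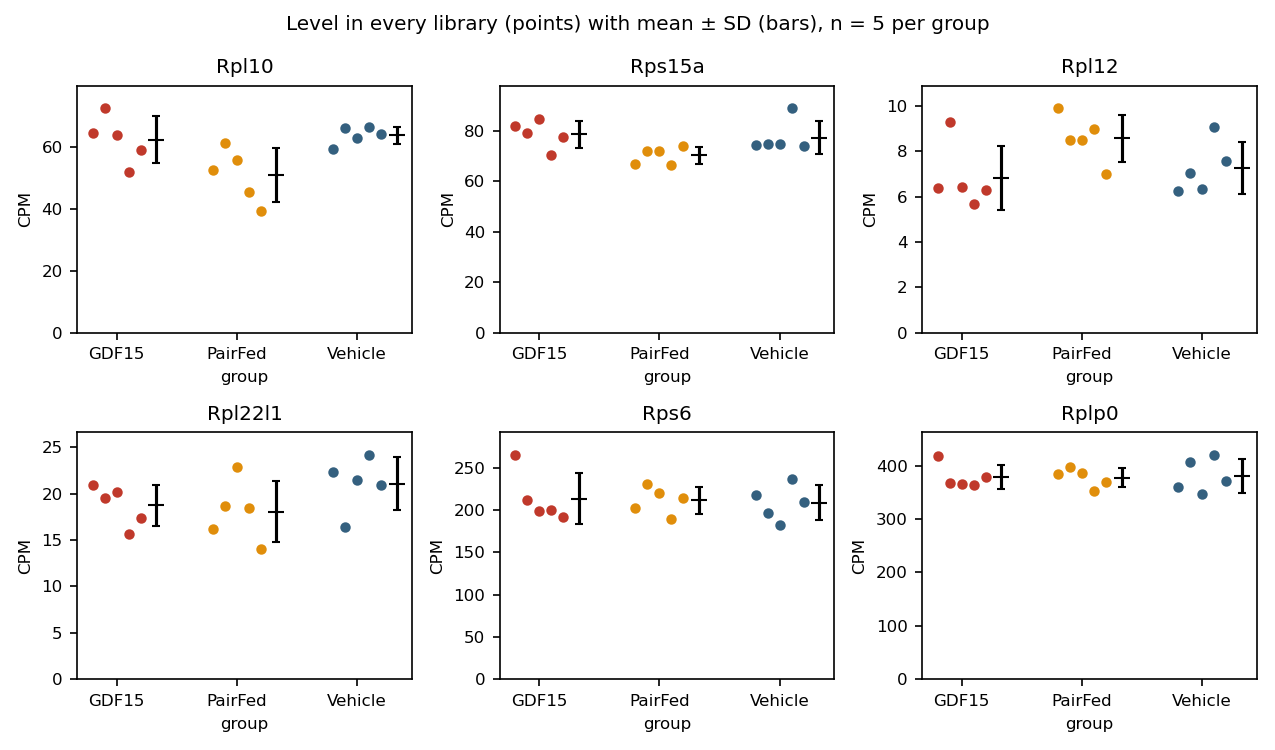
CPM in every library (points, y axis from 0) by group (x axis), with mean ± SD as bars (n = 5 each), for Rpl10, Rps15a, Rpl12, Rpl22l1, Rps6 and Rplp0. The lowest Rpl10 points, at 45.5 and 39.1 CPM, are PairFed libraries, and the groups overlap for each gene except Rps15a in PairFed against Vehicle.

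For GDF15 against Vehicle the lowest p values of the 81 genes belonged to Rpl27, Rpl22l1 and Rps23, and none was under 0.05 before adjustment. Rpl27, a large subunit protein, was at 50.3, 47.9, 46.0, 42.3 and 45.6 CPM in GDF15 livers, 46.6, 43.5, 48.6, 43.8 and 39.0 CPM in PairFed livers and 40.3, 48.5, 47.0, 41.8 and 34.9 CPM in Vehicle livers. Its log2 fold change for GDF15 against Vehicle was 0.13 ± 0.084, with an interval from -0.05 to 0.30 (adjusted p = 0.484 by edgeR), and the groups overlapped. Rpl22l1, a paralog of the RNA-binding large subunit protein Rpl22, was at 21.0, 19.5, 20.2, 15.7 and 17.3 CPM in GDF15 livers, 16.2, 18.7, 22.9, 18.5 and 14.0 CPM in PairFed livers and 22.4, 16.4, 21.5, 24.2 and 21.0 CPM in Vehicle livers. Vehicle 2 lay among the lower GDF15 libraries, and the log2 fold change was -0.18 ± 0.126 (adjusted p = 0.516 by edgeR). Rps23, a protein near the decoding centre of the small subunit, averaged 45.8 ± 2.79 CPM in GDF15 livers, 44.3 ± 4.47 in PairFed livers and 49.8 ± 6.9 in Vehicle livers. The spread was widest in Vehicle, from 40.9 to 58.2 CPM, and the log2 fold change for GDF15 against Vehicle was -0.12 ± 0.090 (adjusted p = 0.527 by edgeR).

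Among small subunit proteins Rps6, which S6 kinase phosphorylates downstream of mTORC1 (chr4:86854099-86857367), was at 265, 212, 199, 200.2 and 192 CPM in GDF15 livers, 203, 230.4, 220.4, 189 and 214 CPM in PairFed livers and 218, 197, 182, 236 and 209.5 CPM in Vehicle livers. GDF15 1 was the highest of the 15, and the other GDF15 libraries lay within the range of the other groups. Means were 214 ± 29.7 CPM in GDF15, 211 ± 15.9 in PairFed and 209 ± 20.5 in Vehicle. Rps3, near the mRNA entry channel, varied little, at 202 ± 5.95 CPM in GDF15, 201 ± 9.78 in PairFed and 199 ± 14.0 in Vehicle. Rps14, another small subunit protein, was at 167 ± 14.5 CPM in GDF15, 160.1 ± 11.4 in PairFed and 166 ± 20.4 in Vehicle. Rps27a, which is made as a fusion with ubiquitin, was at 147 ± 8.96 CPM in GDF15, 142 ± 11.8 in PairFed and 148 ± 19.8 in Vehicle. For these 4 genes the group means lay closer together than the largest SD within a group.

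On the large subunit the stalk proteins, which recruit translation factors, had near-equal means in the 3 groups. Rplp0 (chr5:115559467-115563729), the stalk's core and a common reference gene for qPCR, was at 418, 368, 366, 363 and 379 CPM in GDF15 livers, 385, 397, 386, 352 and 369 CPM in PairFed livers and 359.9, 406, 347, 420.3 and 371 CPM in Vehicle livers. GDF15 1 and Vehicle 4 were its highest libraries. Its means were 379 ± 22.8 CPM in GDF15, 378 ± 17.6 in PairFed and 381 ± 31.2 in Vehicle. Rplp1 was at 306 ± 27.1 CPM in GDF15, 298 ± 21.8 in PairFed and 301 ± 22.9 in Vehicle, and its group means lay closer together than its SDs. Rplp2 was at 111 ± 16.5 CPM in GDF15, 110 ± 11.5 in PairFed and 110 ± 15.54 in Vehicle. Rpl3, which reaches towards the peptidyl transferase centre, stood at 247 ± 11.8 CPM in GDF15, 238 ± 25.9 in PairFed and 246 ± 26.3 in Vehicle. Rpl4 lines the exit tunnel and was the more abundant per length, at 296 CPM per kb against 180.5 for Rpl3. By group it was at 468 ± 17.6 CPM in GDF15, 447 ± 23.2 in PairFed and 451 ± 40.4 in Vehicle. Rpl5 and Rpl11 enter the subunit together with 5S rRNA and can bind Mdm2. Rpl5 was at 18.1 ± 1.5 CPM in GDF15, 16.3 ± 2.1 in PairFed and 18.3 ± 2.57 in Vehicle. Rpl11 was at 101 ± 10.1 CPM in GDF15, 111 ± 15.29 in PairFed and 108 ± 13 in Vehicle. None of these was past the threshold in any comparison.

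The genes moved together from library to library. Within groups, the median pairwise correlation of log2 CPM between 2 of the 81 genes was 0.73, and 76.2% of pairs were above 0.5, given over 15 libraries as a description. The same median was 0.65 for 37 subunits of mitochondrial complex I, 0.36 for 78 mitochondrial ribosome genes, 0.34 for 28 translation factors and other TOP mRNAs, 0.16 for 42 ribosome assembly genes and -0.0011 for all tested genes. These libraries share their depth and scaling. Without Vehicle 4 the median of the 81 genes was 0.61, and without Vehicle 4 and GDF15 1 it was 0.53. It was 0.71 among large subunit genes and 0.75 among small subunit genes. Of the 81 genes 75 had a correlation above 0.5 with the mean of the others, and 58 above 0.8. Rps4l was lowest at -0.23, followed by Rpl5 at 0.046, and Rpl15, Rpl27 and Rpl7l1 each had 0.34.

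Some libraries were high across the set and others low. Relative to the mean of the 15 libraries, the mean log2 CPM of the 81 genes was 0.172 in GDF15 1, 0.113 in PairFed 3 and 0.233 in Vehicle 4. It was lowest in PairFed 5 at -0.120 and in Vehicle 1 at -0.099. In Vehicle 4, 79 of the 81 genes were above their own mean and 49 had their highest value of the 15 libraries, and in GDF15 1 these counts were 76 and 21. The group means of this score were 0.014 ± 0.095 in GDF15, -0.022 ± 0.097 in PairFed and 0.0081 ± 0.132 in Vehicle (SD, n = 5 each), so the groups differed by less than the spread within them. Without Vehicle 4 the Vehicle mean was -0.048 ± 0.044. The median within-group SD of the 81 genes on the log2 scale was 0.066 once their own mean was subtracted from each library, and 0.134 before.

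Other measures stood apart in GDF15 1 and Vehicle 4. In Vehicle 4 the 4 B and plasma cell markers summed to 95.5 CPM, against 3.63 to 7.91 in GDF15, 3.65 to 15.9 in PairFed and 3.27 to 8.04 in the other Vehicle libraries, and Jchain alone was at 78.5 CPM there. Within PairFed these markers were highest in PairFed 3, at 15.9 CPM, and in PairFed 5, at 14.4 CPM. PairFed 5 had the lowest ribosomal protein score of the 15 libraries. GDF15 1 had the highest hepatocyte marker sum of the 15 libraries, 119508 CPM, and the lowest sums for the Kupffer cell (138 CPM), monocyte and lipid-associated macrophage (189.8 CPM), endothelial (42.3 CPM) and stellate cell (171 CPM) lists. The scores of the translation factors and other TOP mRNAs were 0.090 in GDF15 1 and 0.111 in Vehicle 4. Those of the mitochondrial ribosome were 0.180 in GDF15 1 and 0.061 in Vehicle 4, and those of complex I 0.235 in GDF15 1 and 0.020 in Vehicle 4. The 806 other tested genes with transcripts under 1000 bases scored 0.058 in GDF15 1 and 0.090 in Vehicle 4. PairFed 3 scored 0.049 for translation factors and other TOP mRNAs and 0.051 for the mitochondrial ribosome. It scored 0.0029 for complex I and 0.049 for the short transcripts. The part of these measures in the ribosomal protein levels was not tested.

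**Figure D3:**
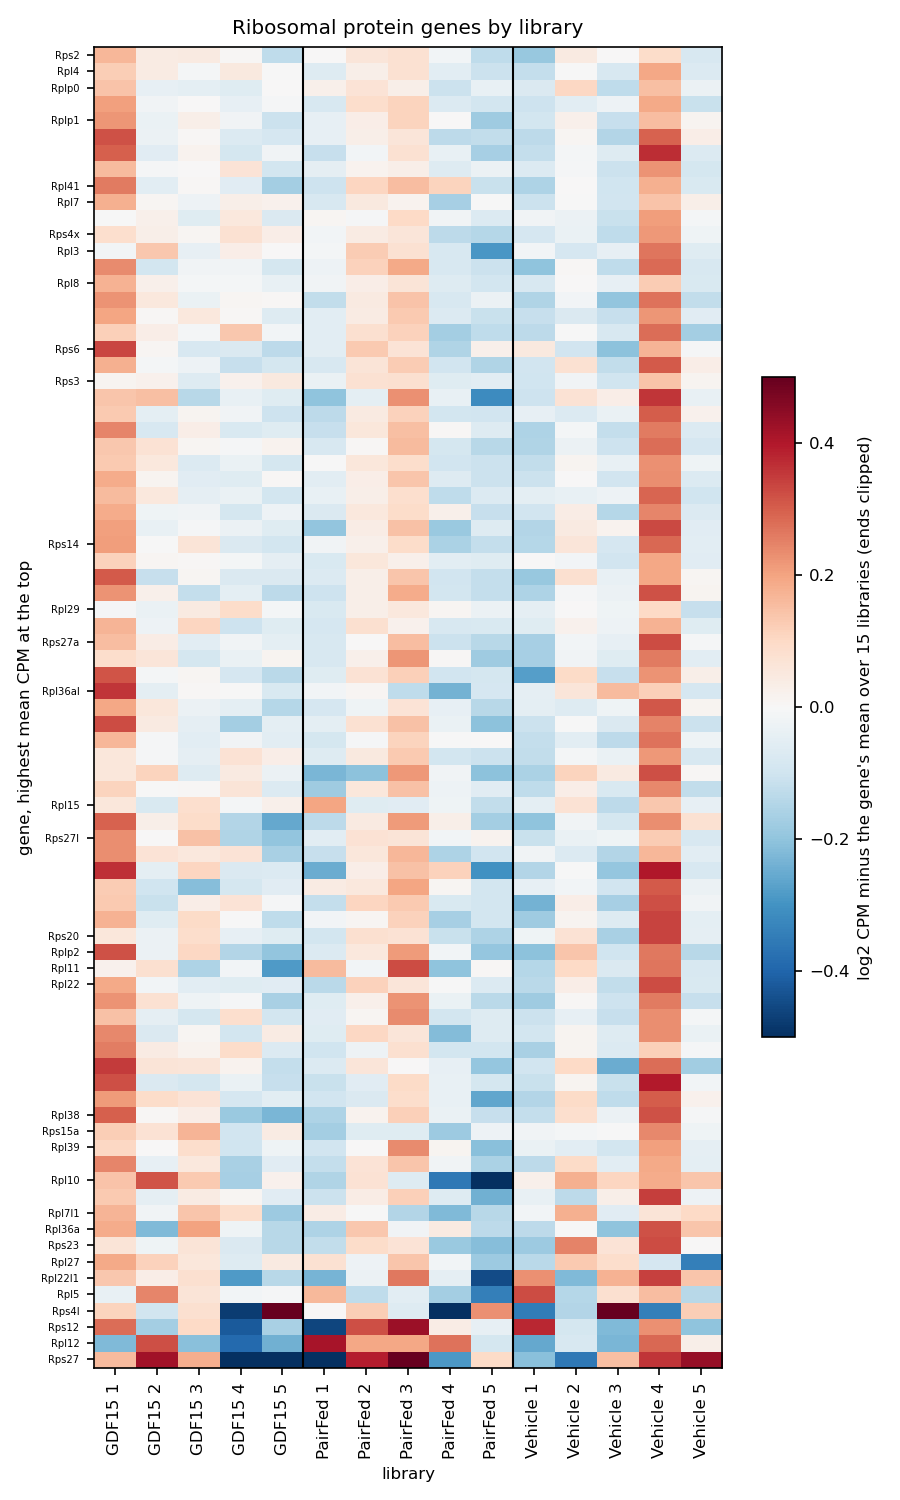
Log2 CPM of each of the 81 genes (rows, highest mean CPM at the top; a selection of genes is labelled) in each library (columns, by group), minus the gene's mean over the 15 libraries, with the colour scale clipped at -0.5 and 0.5. Red columns run through nearly all genes in GDF15 1, PairFed 3 and Vehicle 4, where 76, 73 and 79 of 81 genes were above their own mean.

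**Figure D4:**
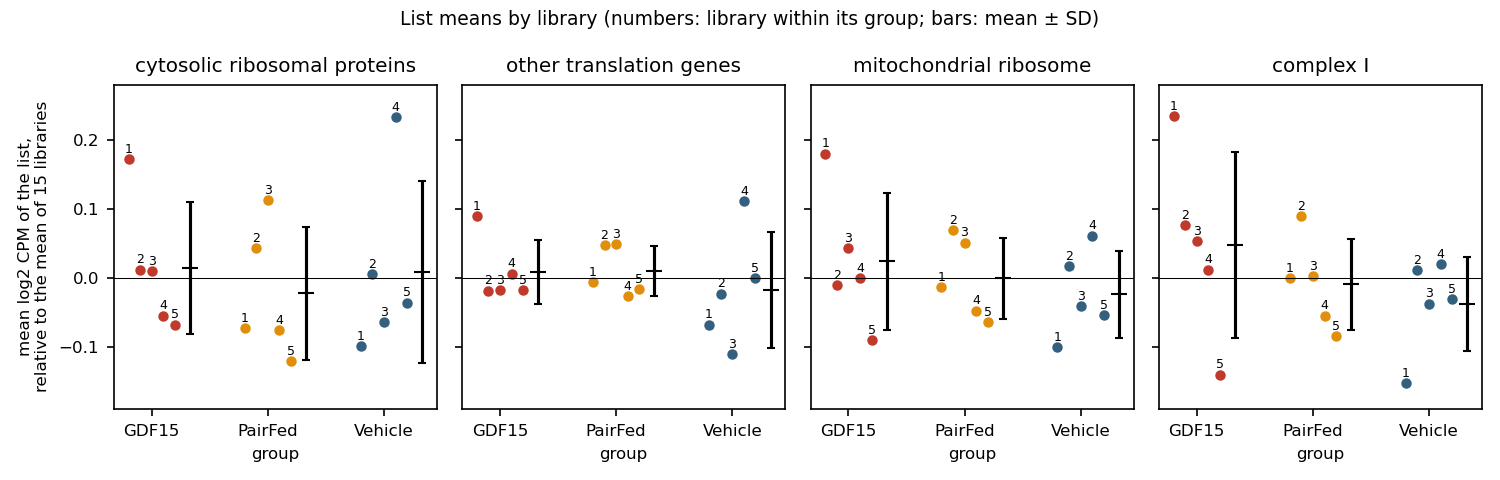
Mean log2 CPM of 4 gene lists in each library (points, numbered within the group), relative to the mean of 15 libraries (y axis), by group (x axis), with mean ± SD as bars. For the ribosomal protein genes Vehicle 4 is highest at 0.233, whereas for complex I GDF15 1 is highest at 0.235.

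With the common movement left in, the within-group SD of log2 CPM of the 81 genes had a median of 0.134, against 0.176 for all tested genes and 0.124 for mitochondrial ribosome genes, and it was below 0.2 for 75 of 81. Rpl29 was lowest at 0.061. The 3 most variable genes were Rps27, Rps4l and Rps12, all of low count. Rps27 had 6 to 21 counts per library and stood at 0.983 ± 0.353 CPM in GDF15, 1.14 ± 0.392 in PairFed and 1.11 ± 0.258 in Vehicle. Rps12 was at 7.70 ± 1.45 CPM in GDF15, 8.52 ± 1.95 in PairFed and 8.23 ± 1.58 in Vehicle. Rps4l was at 14.4, 12.5, 14.1, 9.61 and 23.1 CPM in GDF15 livers, 13.4, 14.5, 12.8, 9.44 and 15.6 CPM in PairFed livers and 10.5, 12.1, 19, 10.5 and 14.6 CPM in Vehicle livers. GDF15 5 and Vehicle 3 were its highest libraries, and neither was high for the other genes.

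The mRNA levels per transcript length were uneven in the table. Across the 80 genes with a principal transcript in GENCODE M21, the mean over 15 libraries had a median of 227 CPM per kb, and 61 genes lay within 2-fold of it. The highest were Rpl41 at 621, Rplp1 at 605 and Rps2 at 602 CPM per kb. The lowest were Rps27 at 3.12, Rpl12 at 6.08, Rpl5 at 8.58, Rps12 at 16.5 and Rps20 at 30.0 CPM per kb. The levels thus spanned 199-fold. The value of Rps20 rests on a listed transcript of 3706 bases, against a median of 680.5 bases across the 80 genes. Before division by length Rps20 stood at 111 CPM, against a median of 137 CPM for the ribosomal protein genes. The median was 222 CPM per kb for large subunit genes, 241 for small subunit genes and 22.2 for 78 mitochondrial ribosome genes.

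Ribosomal protein genes have many near-identical processed copies in the genome, and how the counting split reads among copies is not given in the sources used here. Of the 31-base stretches of a member's transcript, a median of 63.2% were also in transcripts of other GENCODE genes, and 56 of the 80 genes shared at least 50% of theirs. The share was 98.7% for Rps27 and 90.5% for Rps12, but 49.8% for Rpl12, 49.0% for Rpl5 and 10.3% for Rps20. Both the share and the level per kb of Rps20 depend on its listed transcript of 3706 bases. Whether that transcript is the one present in these livers was not tested. Across the 80 genes the share and the level per length had a Spearman rho of 0.28, as a description, and genes sharing at least 50% had a median of 241 CPM per kb against 134 for the other 24. Rpl8, at 9.99% shared, is read with little ambiguity of this kind, and it stood at 269 CPM per kb, near the median. Rows for some copies are in the table beside the genes they resemble. Rpl14-ps1 had a sum of 6376 counts against 18376 for Rpl14, BC004004 had 16685 against 27190 for Rpl21, and Rpl37rt had 3017 against 14197 for Rpl37. Rps27rt, which holds 98.7% of the 31-base stretches of Rps27, had 10. Counts of these members are therefore uncertain, and whether shared sequence accounts for the low level of Rps27 or Rps12 was not tested.

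**Figure D5:**
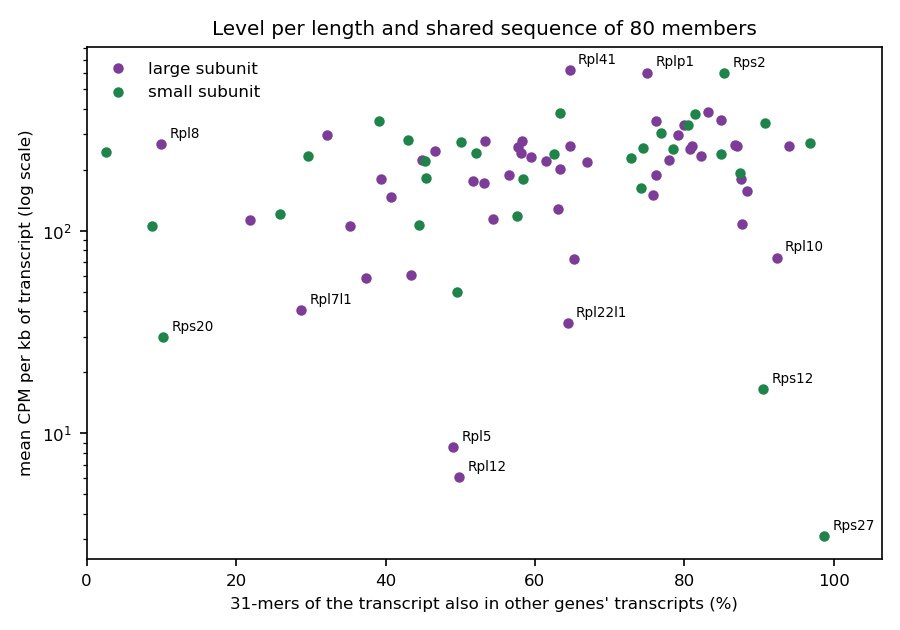
Mean CPM per kb over 15 libraries (y axis, log scale) against the percentage of a transcript's 31-base stretches found in transcripts of other genes (x axis), 1 point for each of 80 genes, coloured by subunit. Of the 80 points 61 lie within 2-fold of the median of 227 CPM per kb, and the median is 241 at or above 50% shared and 134 below, with Rps27, Rpl12, Rpl5 and Rps12 the lowest.

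As counted, the paralogs differed from their partners in level and not detectably between groups. Per kb of transcript, Rpl22 averaged 225 CPM and Rpl22l1 34.9, Rpl7 averaged 222 and Rpl7l1 40.8, and Rps27 averaged 3.12 and Rps27l 235. For the pair Rpl36a and Rpl36al, the second was the higher, at 261 CPM per kb against 108 for Rpl36a. Of the 31-base stretches, 98.7% of those of Rps27 and 29.6% of those of Rps27l were also in other genes. For Rpl36a and Rpl36al these shares were 87.6% and 64.7%. They were 44.8% for Rpl22 and 64.4% for Rpl22l1, and 61.4% for Rpl7 and 28.7% for Rpl7l1. The differences in level of all these pairs are therefore uncertain. By group, Rpl36al was at 142 ± 18.7 CPM in GDF15, 129 ± 8.62 in PairFed and 141 ± 10.1 in Vehicle. Rpl36a (chrX:134585654-134588062) was at 52.0 ± 6.84 CPM in GDF15, 50.9 ± 4.26 in PairFed and 52.9 ± 7.83 in Vehicle. Rps27l, a p53 target in mouse, was at 118 ± 15.195 CPM in GDF15, 118 ± 4.28 in PairFed and 115 ± 7.52 in Vehicle. None of these differences was past the threshold. The X-linked Rps4x was at 256 ± 5.78 CPM in GDF15, 242 ± 15.7 in PairFed and 247 ± 23.8 in Vehicle. Rpl39, whose paralog Rpl39l was not among the 81 genes, was at 70.0 ± 4.01 CPM in GDF15, 69.2 ± 8.06 in PairFed and 69.3 ± 5.98 in Vehicle.

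Lists of genes around the ribosomal proteins also had 0 genes past the adjusted threshold in each comparison by edgeR and by limma-voom. They were 28 translation factors and other TOP mRNAs, 42 ribosome assembly genes, 15 genes of RNA polymerase I, which transcribes rRNA, 34 mTORC1 components and TOP regulators, 78 mitochondrial ribosome genes and 37 complex I subunits. At an unadjusted p below 0.05 edgeR gave 8 of the 34 mTORC1 components (23.5%) for GDF15 against Vehicle, 7 (20.6%) for PairFed against Vehicle and 8 (23.5%) for GDF15 against PairFed, beside 16.7%, 16.9% and 13.3% of all genes. The shares of the other lists ran from 0 to 14.3%. DESeq2 called 5.23%, 2.76% and 2.03% of all genes. For GDF15 against Vehicle it called Nap1l1, from the list of translation factors and other TOP mRNAs, and the complex I gene Ndufa12. It also called 4 genes of the mTORC1 list, which are named because of this. Ddit4, a stress-induced inhibitor of mTORC1, was called for GDF15 against Vehicle, at 110.4 ± 85.1 CPM in GDF15, 46.0 ± 28.4 in PairFed and 24.2 ± 11.6 in Vehicle. Eif4ebp3, which binds the cap-binding protein eIF4E, was called in the same comparison, at 10.9 ± 4.82 CPM in GDF15, 6.59 ± 4.01 in PairFed and 4.36 ± 1.96 in Vehicle. In these 2 genes the SD in GDF15 is a large part of the mean, and edgeR called none of the 4 genes. Myc, a transcription factor of ribosome production, was called for PairFed against Vehicle, at 36.7 ± 33.7 CPM in GDF15, 60.9 ± 45.8 in PairFed and 10.4 ± 3.68 in Vehicle. Its SD too is a large part of the mean in GDF15 and in PairFed. Castor1, an arginine sensor of mTORC1, was called for GDF15 against PairFed, at 2.23 ± 0.207 CPM in GDF15, 3.68 ± 0.479 in PairFed and 3.05 ± 0.682 in Vehicle.

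Median log2 fold changes of the lists for GDF15 against Vehicle were 0.019 for translation factors and other TOP mRNAs and -0.022 for ribosome assembly. They were -0.0053 for RNA polymerase I and 0.070 for mTORC1 components. For PairFed against Vehicle they were 0.022, -0.040, 0.066 and 0.058 in the same order of lists, and for GDF15 against PairFed 0.019, -0.019, -0.070 and 0.017. The mitochondrial ribosome had medians of 0.050, 0.023 and 0.015 and complex I of 0.082, 0.030 and 0.074 in the same order of comparisons. Beside them stand Rpsa, Fau and Rack1, ribosomal or ribosome-bound proteins whose symbols fall outside the pattern. Rpsa averaged 326 CPM in GDF15, 308 in PairFed and 329 in Vehicle, and Fau averaged 157 in GDF15, 152 in PairFed and 149 in Vehicle. Rack1, a scaffold on the small subunit, averaged 250.2 CPM in GDF15, 241 in PairFed and 246 in Vehicle. None of them was past the threshold in any comparison.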

How the data were processed

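Whole-number estimated counts per gene symbol were deposited by the authors for 15 liver libraries, unscaled. Per the submitters' processing notes, Salmon, DESeq2 and the build mm10 were used, with no version or role stated, and library preparation was directional per the labels' protocols. Columns were placed in groups by their names. The members and gene lists were chosen with earlier results of these data known. Low-count genes were removed in R 4.3.3 by edgeR 4.0.16 (filterByExpr, minimum count 10 and minimum total 15). The 12274 genes tested hold 99.9% of counts, and libraries were scaled by TMM. CPM are on this scale. A single quasi-likelihood fit with robust estimation covered all 15 libraries, with Benjamini-Hochberg adjustment over all tested genes, a threshold of 0.05, and a common biological coefficient of variation of 13.3%. Libraries are taken as separate animals, although the labels tie none to an animal number, so p-values measure the spread between libraries. The fit was tested on simulated data. DESeq2 1.42.0, limma 3.58.1 (voom), sva 3.50.0, other scalings, filters, a depth term, thinning and left-out libraries were tried. Genes named in full were those with the lowest p in each comparison, preset members of known role, paralogs and the most variable genes. Positions and start sequences are RefSeq's (GRCm38.p6). Transcript lengths and shared 31-base stretches come from GENCODE M21, using the shortest of the best-ranked principal transcripts. Some items are not reported here.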

Additional observations from a re-analysis of the deposited data

Results flagged for a closer look

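In a group of 5 libraries, a highest or lowest value was marked when its gap to the nearest other value was over 0.71 of the group's whole range (Dixon's 95% critical value), which chance does in about 1 of 20 groups. Over all 81 genes this marked 38 of 243 gene and group pairs, 18 in GDF15, 1 in PairFed and 19 in Vehicle, and the 19 in Vehicle were all in Vehicle 4.

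Of the 81 genes, 5 of those with group values or a paralog pair given above had GDF15 1 far above the other GDF15 libraries. There Rps6 was at 265 CPM, Rplp0 at 418 CPM, Rpl22 at 121 CPM, Rpl36al at 175 CPM and Rpl7 at 291 CPM. In the same group Rpl12 stood apart in GDF15 2, at 9.29 CPM. In Vehicle 4 the 81 genes held 1.55% of the counts, far above the other Vehicle libraries. In the same selection 5 genes stood apart in Vehicle 4. They were Rps15a at 88.9 CPM, Rps4x at 288 CPM, Rpl3 at 293 CPM, Rps27a at 182 CPM and Rpl39 at 79.8 CPM.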

How the results depend on the processing

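No gene of the 81 was past the threshold in any of 87 alternative fits, 29 settings in each of 3 comparisons, and the lowest adjusted p of any was 0.0581. Several fits of PairFed against Vehicle called 0 of all tested genes. These included the fit with the depth term and those without Vehicle 1, Vehicle 3, PairFed 2 or PairFed 4. In them 0 of the 81 is no result about these genes. Nor is it one for either comparison with PairFed in the 10 shallower libraries, where 1 PairFed library was left. Medians of the 81 genes ran from -0.088 to 0.070 for GDF15 against Vehicle, from -0.12 to 0.042 for PairFed against Vehicle and from -0.0036 to 0.19 for GDF15 against PairFed; the last value, 0.19, came with the depth term. The genes whose interval lay within 0.5 on the log2 scale numbered 76 to 80, 72 to 78 and 67 to 77. Without the 20 largest other genes the share of counts was 1.58% in GDF15, 1.62% in PairFed and 1.68% in Vehicle. The named fold changes kept their sign in all settings that gave a value; the 10 CPM filter removed Rpl12. Restricting to the 10 shallower libraries left 1 PairFed library, which was assumed to vary like the other groups. Scaling by the summed counts of the 81 genes, added after seeing the data, moved the median of all genes to -0.021, 0.022 and -0.038. No paired analysis was possible because the columns carry no number that links a PairFed library to a GDF15 library. Depth and n limit what could be called: differences as large as that of Rpl10, -0.33 for PairFed against Vehicle, were not past the adjusted threshold, and intervals were widest for low-count genes such as Rps27.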
